A study of Bos grunniens and Bos taurus with 11 samples.

Results

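MicroRNAs (miRNAs) were compared between the lungs of yaks living at 5000 m, the T3 group, and at 4200 m, the T2 group. Each group held 3 libraries, 1 per animal, and these 6 were chosen by their altitude labels from the 11 libraries of the series. The others came from 3 yaks at 3400 m (T1) and 2 Zaosheng cattle at 1500 m (CON). Per the study's methods the animals were adult males indigenous to their altitude, and the question was how the lung responds as oxygen falls over the yak's own range. The sample names carry 1 site code for the T3 yaks and 3 site codes, 1 per animal, for the T2 yaks, so altitude and site cannot be told apart. The tissue label reads lung, although the extraction text in the labels speaks of retinas. The p-values of the fitted models below rest on the spread between animals within groups, pooled over all 11 libraries. Those of the permutation tests use the 6 libraries alone. In T2 the spread between animals includes that between sites.

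A miRNA is a short RNA of animals and plants that pairs with messenger RNAs and lowers their translation or stability. It is cut from a hairpin precursor whose arms can each give a mature strand, the 5p and the 3p strand, and usually one of these strands is loaded into the silencing complex and accumulates while the other is degraded. Animal lungs are known for abundant miRNAs of vessel and blood cells, such as miR-126 of endothelium, miR-143 and miR-145 of smooth muscle and miR-451 of red cells, and miR-210 is the classic miRNA induced by low oxygen. None of these could be followed here by name. The tables list 1377 names, of which 1046 are predictions known by a number and an arm, such as m1080-5p, and 331 carry a plant or algal prefix. Of 21 animal miRNAs looked up as markers of lung, vessel and blood cells, 0 matched, so neither the tissue label nor its cell types could be checked. Values are RPM, reads per 1000000 reads given any of the listed names. In bulk tissue, fewer cells of a type and less RNA per cell cannot be told apart.

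Whole reads recovered from RPM totalled 5388032, 1589131 and 2436521 in T2 1, T2 2 and T2 3, and 1744433, 1849522 and 2446991 in T3 1, T3 2 and T3 3. One read was therefore worth 0.186 RPM in the deepest library, T2 1, and 0.629 RPM in the shallowest, T2 2. The 6 libraries did not form 2 blocks by altitude. Spearman's rank correlation, given as a description across 310 names that share libraries and depth, was 0.915 between T3 1 and T3 2 but 0.761 and 0.825 between these and T3 3. T3 3 was closest among the 6 to T2 3, at 0.888. T2 1 and T2 2 correlated at 0.870, and T2 2 and T2 3 at 0.656. T2 2 also stood apart in having reads for 19 plant-prefixed names, against 88 in T2 1, 118 in T2 3 and 107 to 109 in the T3 libraries. Per the study's supplement, the raw small RNA reads of T2 2 and of the cattle library CON 1 had lower base quality than all others. A link between this quality and the missing names was not tested. The results that follow are therefore also given without single libraries where those decide them.

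No miRNA passed the test between 5000 m and 4200 m. With limma on log2(RPM + 1), 0 of the 310 names averaging 1 RPM or more (0%) reached an adjusted p under 0.05 with a 2-fold difference, and the smallest adjusted p was 0.151. edgeR on the recovered reads also called 0 names, and DESeq2 called 5, all lower in T3. At an unadjusted p under 0.05 with a 2-fold difference, 43 names stood out, 6 higher in T3 (1.94% of the 310) and 37 lower (11.9%). The lower names were all predictions, while 2 of the 6 higher names bore plant prefixes. The 3 T3 libraries lay wholly above the 3 T2 libraries for 10 names (3.23%) and wholly below for 24 names (7.74%). With RLE scaling these counts were 22 and 23, and in RPM outside m1080-5p, the most abundant name, 9 and 40. For 3 against 3 libraries in random order, no overlap in either direction has a probability of 0.1, barring ties. Lack of overlap alone therefore marks no name as different.

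The split between higher and lower depended on scaling and on the libraries fitted. The median log2 difference over the 310 names was -0.49 in RPM, 0.03 with the size factors of DESeq2 (RLE scaling) and -0.19 with TMM factors. With RLE scaling the unadjusted counts became 20 higher and 27 lower, a lower share of 57.4% in place of 86.0%. With TMM they were 10 and 33, a lower share of 76.7%. When RPM were taken over the reads outside m1080-5p they were 2 and 58. They were 19 and 38 with the 9 yak libraries alone, 19 and 37 without either CON 1 or CON 2, and 6 and 22 with a term for the libraries with few plant-prefixed names.

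**Figure D1:**
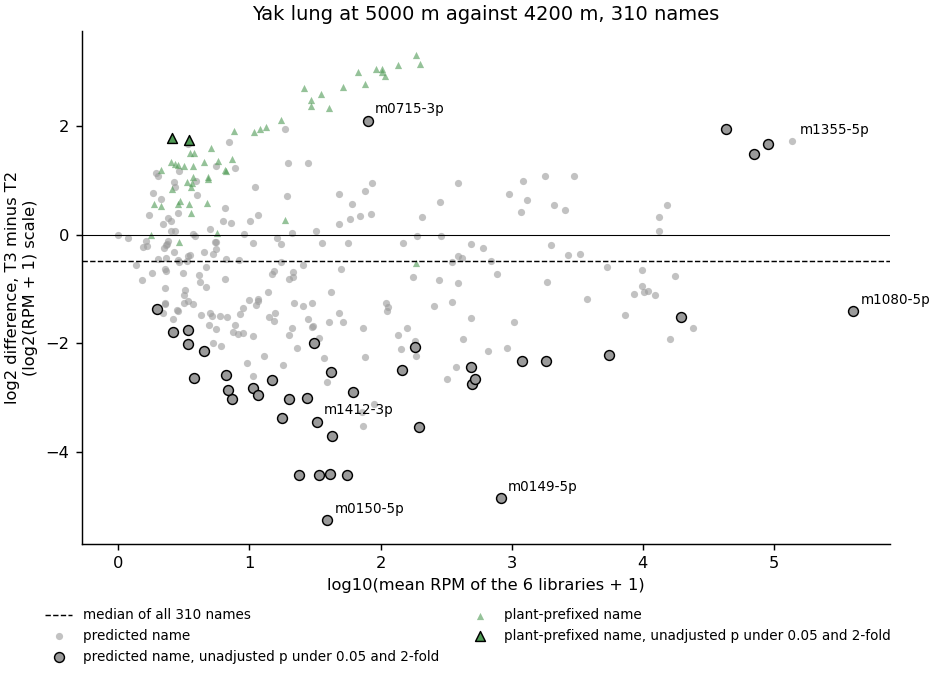
Log2 difference between T3 and T2 (vertical axis, log2(RPM + 1) scale) against log10 of the mean RPM of the 6 libraries plus 1 (horizontal axis) for the 310 names tested, with circles for predicted and triangles for plant-prefixed names. Outlined symbols mark the 43 names at an unadjusted p under 0.05 with a 2-fold difference, the dashed line marks the median of -0.49, and 52 of the 55 plant-prefixed names lie above 0.

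A handful of predicted 5p strands held most of the reads, in shares that differed widely between the libraries of T3. The most abundant, m1080-5p, made up 64.6%, 35.1% and 63.0% of the reads in T2 1, T2 2 and T2 3. In T3 1, T3 2 and T3 3 it made up 12.8%, 10.1% and 58.2%. T3 1 and T3 2 were thus below every T2 library, while T3 3 lay inside the T2 range. The means were 27.0 ± 27.1% in T3 and 54.2 ± 16.6% in T2 (SD, n = 3 each), and an exact two-sided permutation test gave p = 0.2, where 0.1 is the smallest p that 3 against 3 allows. This was a log2 difference of -1.42 ± 0.64 (SE, limma adjusted p = 0.289). Without the filter on low values, limma called m1080-5p as lower in T3, with m0064-3p, m0149-3p, m0150-5p, m1080-3p and m1348-3p. That fit held 1291 names and left the log2 difference of m1080-5p at -1.42. The call therefore came with the added names and not with a wider difference. Per the study's supplement, the messenger RNA libraries of the T3 1 and T3 2 animals had lower shares of uniquely mapped reads than all others. Whether sample quality bears on the m1080-5p shares was not tested.

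The next 4 names by abundance took the opposite course in the same libraries. Together, m1355-5p, m1356-5p, m0360-5p and m0753-5p held 9.40%, 17.8% and 15.3% of the reads in the T2 libraries and 73.4%, 74.0% and 16.3% in T3 1, T3 2 and T3 3. Their joint share was 54.5 ± 33.1% in T3 and 14.2 ± 4.31% in T2 (SD, n = 3 each; exact permutation p = 0.2). T3 3 again lay within the T2 range.

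Among these 4, m1355-5p had the highest level in the T3 mean and the widest split in percentage points. It held 3.15%, 6.45% and 5.77% of the T2 libraries and 34.8%, 29.0% and 4.21% of the T3 libraries. In T3 1 and T3 2 it replaced m1080-5p as the leading name. The log2 difference was 1.73 ± 0.82 (SE, limma adjusted p = 0.289).

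The names m1356-5p and m0753-5p followed the same division. The share of m1356-5p was 2.74%, 5.18% and 3.75% in T2 and 17.2%, 20.6% and 4.83% in T3, a log2 difference of 1.67 ± 0.61 (SE, limma adjusted p = 0.282). The share of m0753-5p was 0.708%, 2.27% and 1.68% in T2 and 8.46%, 11.1% and 1.62% in T3, a log2 difference of 1.94 ± 0.80 (SE, limma adjusted p = 0.289). For both, T3 3 overlapped the T2 libraries.

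The name m0360-5p was the exception in that all of its T3 libraries exceeded all of its T2 libraries. It stood at 2.80%, 3.89% and 4.09% of the reads in T2 and at 12.9%, 13.3% and 5.64% in T3. This was a log2 difference of 1.48 ± 0.56 (SE, limma adjusted p = 0.282). Without T3 3, the limma test called m1355-5p, m1356-5p and m0753-5p as higher in T3 and m1080-5p as lower, with log2 differences of 2.70, 2.32, 2.80 and -2.20.

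**Figure D2:**
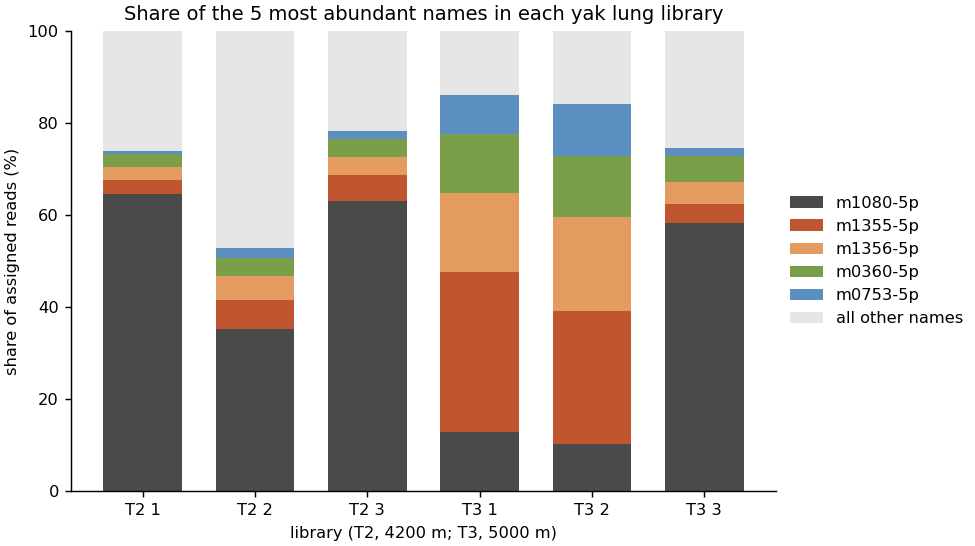
Share of assigned reads (vertical axis, %) held by the 5 most abundant names in each of the 6 libraries (horizontal axis), stacked, with all other names in light grey. The dark segment, m1080-5p, is 12.8% and 10.1% in T3 1 and T3 2 and 35.1% to 64.6% in the other 4 libraries.

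Names of low or middle abundance held the widest differences between the altitudes. The lowest p belonged to m0150-5p, which had 960, 73 and 14 reads in T2 1, T2 2 and T2 3 and 0 reads in every T3 library. In RPM it was at 178, 45.9 and 5.75 in T2. Set against 3 reads per T3 library, its T3 level was at least 50.3-fold lower, and at least 17.0-fold lower without T2 1. The limma adjusted p was 0.151. The DESeq2 test called it.

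Its numbered neighbours had a like profile. The strand m0149-5p stood at 4120, 767 and 9.44 RPM in T2 1, T2 2 and T2 3 and at 5.16, 5.41 and 33.9 RPM in T3, so T2 3 lay within the T3 range. The strand m0151-5p stood at 198, 47.2 and 0 RPM in T2 and at 0, 0 and 3.27 RPM in T3. Both were high in T2 1 and T2 2 only among these 6 libraries. The log2 differences were -4.85 ± 1.71 for m0149-5p and -3.71 ± 1.55 for m0151-5p (SE, limma adjusted p = 0.282 and 0.289), and DESeq2 called both. With 1 library left out, these differences ranged from -7.32 to -3.01 and from -5.91 to -2.10, and limma called both without T2 3. Consecutive numbers may mark related hairpins, but no sequences were used here and reads shared between such names were not tested.

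The next lowest p after that of m0150-5p belonged to m0064-3p. It stood at 50.3, 76.8 and 7.80 RPM in T2 and at 0, 0 and 2.45 RPM in T3, with no overlap. The log2 difference was -4.44 ± 1.09 (SE, limma adjusted p = 0.151), and DESeq2 called it as well. The other arm of the same precursor, m0064-5p, was abundant in all 6 libraries at 17128, 16615 and 4816 RPM in T2 and 8227, 6428 and 6664 RPM in T3. Its log2 difference was -0.65 ± 0.64 (SE, limma adjusted p = 0.521), and the sign turned with RLE scaling, to 0.057.

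The precursor m1412 was among those in which T2 3 sided with the other T2 libraries and T3 3 with the other T3 libraries. Its 3p strand stood at 124, 25.8 and 29.96 RPM in T2 and at 1.72, 4.33 and 4.50 RPM in T3. Its 5p strand stood at 6.87, 3.15 and 6.57 RPM in T2, from 37, 5 and 16 reads, and had 0 reads in T3, a level at least 3.63-fold lower. The log2 difference of m1412-3p was -3.45 ± 0.94 (SE, limma adjusted p = 0.228), and DESeq2 called it.

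Other names without overlap were m1348-3p, m0591-5p, m0149-3p, m0676-3p, m0266-3p and m0267-3p. The level of m1348-3p was 106, 106 and 16.8 RPM in T2 and 0.573, 0 and 12.7 RPM in T3, which left a narrow gap between T2 3 and T3 3. That of m0591-5p was 6.87, 15.7 and 7.80 RPM in T2 and 0.573, 0 and 2.45 RPM in T3. The reads of m0149-3p numbered 160, 11 and 3 in T2 and 0 in each T3 library. The gap of m0676-3p rested on 1 read, because T2 3 held 0.821 RPM (2 reads) and T3 3 held 0.409 RPM (1 read).

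The pair m0266-3p and m0267-3p was far more abundant. The level of m0267-3p was 2925, 1943 and 984 RPM in T2 and 197, 237 and 928 RPM in T3. The level of m0266-3p was 1460, 948 and 237 RPM in T2 and 58.5, 88.7 and 204 RPM in T3. In both, T3 3 stood just under T2 3 and well above T3 1 and T3 2. The log2 differences were -2.33 ± 0.82 and -2.75 ± 1.01 (SE, limma adjusted p = 0.282 for each).

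**Figure D3:**
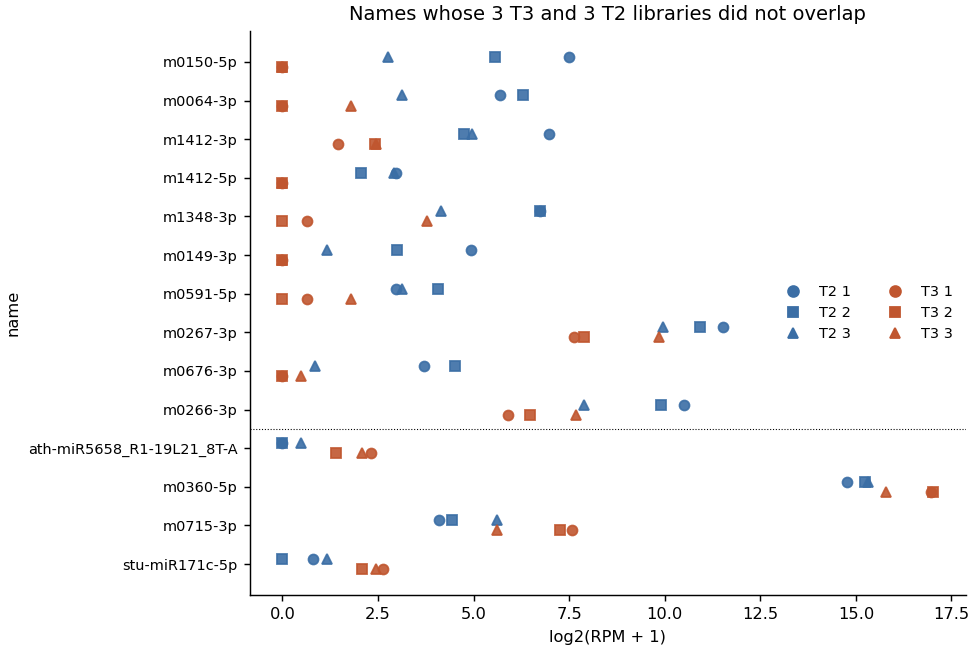
Log2(RPM + 1) (horizontal axis) in each T2 library (blue) and T3 library (orange) for the 10 lower names, above the dotted line, and 4 higher names, below it, that had the smallest p among those at an unadjusted p under 0.05 with a 2-fold difference and no overlap. Circles, squares and triangles are replicates 1, 2 and 3, and the triangles of T2 3 and T3 3 often stand next to each other, as for m1348-3p at 16.8 and 12.7 RPM.

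The position of T3 3 and T2 3 recurred through the 37 lower names. T3 3 was the highest of the T3 libraries for 26 of them (70.3%), against 158 of all 310 names (51.0%). T2 3 was the lowest T2 library for 26 of them (70.3%), against 51.3% of all 310. The names at 0 reads in all 3 T3 libraries numbered 8 of the 37 (21.6%), against 15 of all 310 (4.84%). These shares describe names selected on the same values.

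Names with T3 3 among the T2 levels formed a visible set. The level of m1234-5p was 629, 1046 and 547 RPM in T2 and 38.98, 39.5 and 877 RPM in T3. The level of m1146-5p was 198, 693 and 119 RPM in T2 and 5.16, 10.8 and 141 RPM in T3. The level of m0333-5p was 95.03, 105 and 73.1 RPM in T2 and 4.01, 3.24 and 83.4 RPM in T3. T3 1 and T3 2 were low and T3 3 was not. The names m0833-3p, m0930-5p and m1304-5p were divided alike and belong to this set. All names of the set were called as lower by limma when T3 3 was left out. That fit called 14 names, 11 lower and 3 higher. As the set was grouped by its level in T3 3, its calls without T3 3 follow in part from that choice.

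Another set had reads in T2 1 and T2 2 but none in T2 3. The strand m1080-3p, the rare arm of the most abundant precursor, had 101 and 95.7 RPM in T2 1 and T2 2 and 0 reads in T2 3 and in each T3 library. The strand m1344-3p had 6.31 and 8.18 RPM in T2 1 and T2 2 and 0 reads in the other 4. The strand m0150-3p had 17.4 and 3.78 RPM there and 0 reads in the other 4. Without T2 3, 12 names were called, all lower in T3, among them these 3. As the set was picked for 0 reads in T2 3, its calls without T2 3 follow in part from that choice. Of the 3, m1080-3p was also called without the filter on low values.

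**Figure D4:**
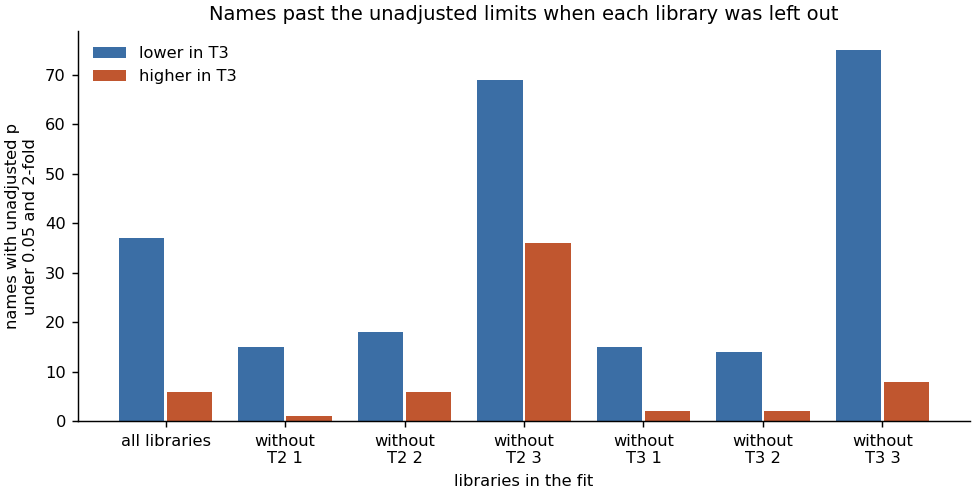
Number of names (vertical axis) at an unadjusted p under 0.05 with a 2-fold difference, lower (blue) and higher (orange) in T3, with all libraries and with each of the 6 libraries left out in turn (horizontal axis). The counts were 69 lower and 36 higher without T2 3, and 75 lower and 8 higher without T3 3, against 14 to 18 lower and 1 to 6 higher without any 1 of the other 4.

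The ratio of the arms of 1 precursor does not depend on how a library is scaled, apart from the pseudocount of 1 RPM. Both arms were tested for 82 precursors, and in RPM both were lower in T3 for 54 and both higher for 4, where 192 of all 255 predicted names tested were lower. These counts depend on scaling, and with RLE they were 39 and 12, with 153 of the 255 lower. The precursors m0149, m0150, m0333, m0676, m1080 and m1412 had an unadjusted p under 0.05 for each arm, all lower in T3. The 3p arm had the lower difference of the pair in 41 of the 82.

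The arms of m0753 moved apart in T3 1 and T3 2. While m0753-5p stood at 84618 and 111156 RPM there, m0753-3p stood at 1.72 and 4.87 RPM, against 78.1, 155 and 135 RPM in T2 and 158 RPM in T3 3. The log2 ratio of 3p to 5p was -14.93 and -14.21 in T3 1 and T3 2 and between -7.18 and -6.48 in the T2 libraries. In T3 3 it was -6.67. The log2 difference of m0753-3p was -3.12 ± 1.52 (SE, limma adjusted p = 0.289).

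The arms of m0833 and m1304 were among those that exchanged rank. For m0833 the 3p arm exceeded the 5p arm in every T2 library, at log2 ratios of 1.12, 2.39 and 4.51, and in T3 3 at 4.10. In T3 1 and T3 2 the 5p arm exceeded it, at ratios of -1.67 and -0.93. For m1304 the 5p arm led in the T2 libraries, at ratios of -1.18, -0.88 and -2.03, and in T3 3, at -2.53. The 3p arm led in T3 1 and T3 2, where m1304-5p had 0 reads and m1304-3p stood at 13.2 and 5.95 RPM. For m0267 the ratios were 2.45, 1.96 and 2.15 in T2, -0.62 and -0.39 in T3 1 and T3 2, and 2.09 in T3 3. For m0307 they were 0.64, 0.02 and 0.28 in T2 and -1.67, -1.06 and -0.05 in T3, without overlap.

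Arm ratios without overlap between the groups included those of m0064 and m0266. For m0064 they were -8.38, -7.74 and -9.10 in T2 and -13.01, -12.65 and -10.9 in T3. Its 3p strand had 0 reads in T3 1 and T3 2. For m0266 they were 10.27, 8.36 and 7.90 in T2 and 5.89, 6.49 and 6.28 in T3. Its 5p strand had no more than 4 reads in any of the 6 libraries. The ratios were not tested. The arm ratio of m1080 did not divide by altitude. It was -12.63 and -11.83 in T2 1 and T2 2, -19.27 in T2 3 and between -19.15 and -16.62 in T3, and the 4 lower ratios were set by a 3p strand with 0 reads. The other arms of m0360-5p and m0267-3p overlapped between the groups. The strand m0360-3p stood at 57.9, 68.0 and 48.4 RPM in T2 and 38.98, 51.9 and 68.2 RPM in T3, with a log2 difference of -0.15 ± 0.75 (SE, limma adjusted p = 0.922), a sign that turned to 0.54 with RLE and 0.24 with TMM scaling. The strand m0267-5p stood at 533, 497 and 221 RPM in T2 and 303, 311 and 217 RPM in T3, with a log2 difference of -0.50 ± 0.72 (SE, limma adjusted p = 0.675), a sign that turned to 0.21 with RLE scaling.

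The higher names were few and, apart from the abundant 5p strands, low. The predicted strand m0715-3p stood at 16.1, 20.8 and 48.0 RPM in T2 and at 189, 153 and 48.2 RPM in T3. T3 3 and T2 3 were nearly equal, and T3 1 and T3 2 were well above both. The log2 difference was 2.10 ± 0.86 (SE, limma adjusted p = 0.289). The plant-prefixed stu-miR171c-5p, from a family that acts on GRAS transcription factors in plants, stood at 0.742, 0 and 1.23 RPM in T2 and at 5.16, 3.24 and 4.50 RPM in T3.

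Plant-prefixed names made up a small part of each library. Their sum was 644, 556 and 2238 RPM in T2 1, T2 2 and T2 3 and 2730, 2161 and 1693 RPM in T3. T2 3 lay within the T3 range and the other T2 libraries below it. On the log2 scale the T3 sum was higher by 1.21 (exact permutation p = 0.3), and without T2 2 as well as with it the group ranges overlapped.

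Within these names, conserved plant families are those shared by many plant species, some by seed plants or flowering plants alone. Of the 93 such names listed, 37 were tested and all 37 had a positive log2 difference, with a median of 1.40, against -0.49 over all 310 names. One of the 37 passed at an unadjusted p, and 0 passed the test. Without T2 2 the median was 0.87. The summed level was 382, 4.40 and 1784 RPM in T2 and 2126, 1667 and 1294 RPM in T3, so T2 2 was nearly empty of these names and T2 3 overlapped T3.

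In all 16 families with a tested name, T2 2 had the lowest sum of the 6 libraries and T2 1 lay below every T3 library, while T2 3 lay within the T3 range in 11, above it in 3 and below it in 2. The miR166 family, which acts on HD-ZIP III factors of leaf polarity, came to 118, 0.629 and 596 RPM in T2 and 676, 536 and 414 RPM in T3. The miR396 family, which acts on growth-regulating factors, came to 98.4, 1.89 and 409 RPM in T2 and 519, 429 and 313 RPM in T3. The miR482 family, which acts on NBS-LRR resistance genes, came to 99.5, 0 and 449 RPM in T2 and 567, 395.2 and 338 RPM in T3. In each, T2 2 was at or near 0 and T2 3 stood between the T3 libraries.

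Among families of lower level, T2 3 lay within the T3 range for some and outside it for others. The miR159 family, which acts on MYB factors, came to 33.8, 0.629 and 179 RPM in T2 and 186, 164.9 and 119 RPM in T3. The miR408 family, which acts on copper proteins, came to 10.02, 0 and 37.3 RPM in T2 and 49.3, 38.9 and 28.6 RPM in T3. T2 3 exceeded the T3 libraries for miR156, miR168 and miR398, and lay under them for miR171 and miR397. Families whose names differ in the matched positions can share reads, which was not tested.

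The other plant-prefixed names divided by the positions in their labels. Of 140 names with rising or no match positions, 12 were tested, 11 of them positive, with a median of 1.46. Of 98 names with falling positions, 6 were tested, 4 of them positive, with a median of 0.77. The summed level of the falling names was 195, 530.5 and 138 RPM in T2 and 239, 221 and 181 RPM in T3, so T2 2 was the highest library. Much of this sum came from gma-miR1520q_R22-8L24, a name picked out once its levels were known, with 499 of the 530.5 RPM in T2 2, 176 of 195 RPM in T2 1 and 66.9 of 138 RPM in T2 3. The other names with falling positions summed to 19.7, 31.5 and 71.0 RPM in T2 and 101, 94.6 and 68.2 RPM in T3. The exact permutation p was 0.9 for the sum of all names with falling positions, and 0.3 for the sum of all names with rising or no positions, which averaged 1981 ± 491 RPM in T3 and 858 ± 1096 RPM in T2 (SD, n = 3 each).

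**Figure D5:**
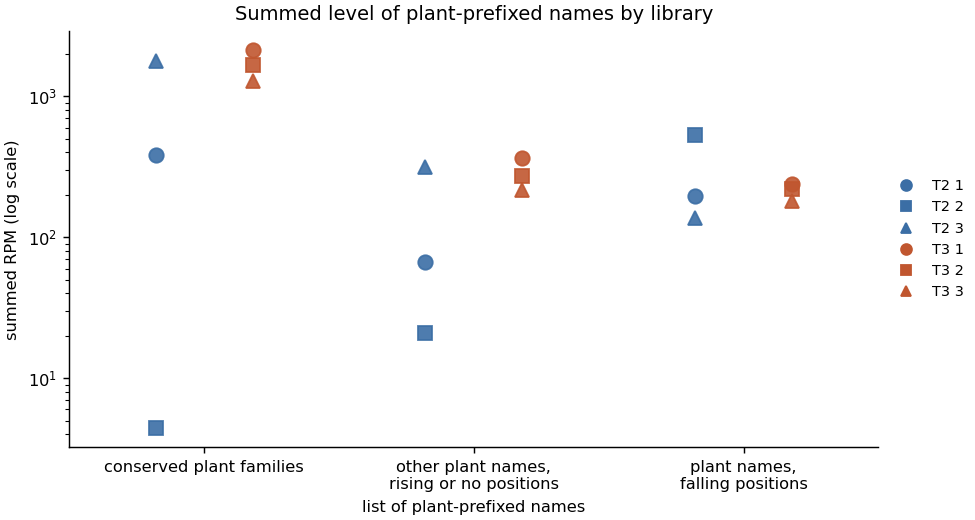
Summed RPM (vertical axis, log scale) of 3 lists of plant-prefixed names in each T2 library (blue) and T3 library (orange), with circles, squares and triangles for replicates 1, 2 and 3. The square of T2 2 is lowest for the conserved families, at 4.40 RPM, and highest for the names with falling positions, at 530.5 RPM, of which 499 RPM belong to gma-miR1520q_R22-8L24.

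The study placed 9 names in its regulatory networks, and since it chose them on these samples they are no independent evidence of direction. Of the 9, 7 were tested, and each had a positive log2 difference, with a median of 1.59 and 1.01 without T2 2. Only ath-miR5658_R1-19L21_8T-A had an unadjusted p under 0.05. It stood at 0, 0 and 0.410 RPM in T2 and at 4.01, 1.62 and 3.27 RPM in T3, no more than 8 reads in any library, with a log2 difference of 1.77 ± 0.63 (SE, limma adjusted p = 0.282).

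The most abundant of the 9 was ata-miR166d-3p_R1-20L21. It stood at 60.3, 0.629 and 300.0 RPM in T2 and at 351, 268 and 216 RPM in T3, with T2 3 inside the T3 range and a log2 difference of 3.14 ± 1.65 (SE, limma adjusted p = 0.289). The level of sly-miR482e-3p_R1-21L22 was 26.0, 0 and 118 RPM in T2 and 120, 96.2 and 87.9 RPM in T3. T2 3 again lay among the T3 libraries.

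The 4 further tested network names were under 10 RPM in each of the 6 libraries. The T3 libraries exceeded all T2 libraries for stu-miR408b-5p_R4-21L21, at 0.928, 0 and 2.46 RPM in T2 and 4.59, 5.41 and 3.27 RPM in T3, and for ppt-miR902f-3p_R15-1L20, at 0.928, 1.26 and 0 RPM in T2 and 3.44, 2.70 and 2.86 RPM in T3. The others, gma-miR6300_R2-18L18 and ata-miR5168-3p, overlapped, with log2 differences of 1.59 and 1.26. The names pab-miR396a and ptc-miR6471_R18-4L21 averaged under 1 RPM and were not tested.

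Predicted names as a class lay the other way. Of the 145 predicted 5p names tested, 45 had positive and 99 negative differences, with a median of -0.64. Of the 110 predicted 3p names, 17 were positive and 93 negative, with a median of -1.27. With RLE scaling these medians were -0.13 and -0.69. Together the 3p names held 142315, 272462 and 110403 RPM in T2 and 62056, 76639 and 132111 RPM in T3, so T3 3 lay between the T2 libraries.

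Presence of names gave a like number on each side. At 1 read or more, 942 names were detected in at least 1 of the 6 libraries and 409 in both groups. In T3 only, 266 names were found, 247 of them in 1 library, and in T2 only, 267 were found, 207 of them in 1 library. At 10 reads or more, 19 names were found in T3 only and 64 in T2 only, with T2 1 the deepest library.

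Very few names separated the groups by presence. In all 3 T3 libraries and no T2 library, 3 plant-prefixed names were found, bdi-miR169c-3p_R2-20L20_8T-C, gma-miR4995_R1-16L21 and mtr-miR166b, with 1 to 3 reads each. In all 3 T2 libraries and no T3 library, 12 predicted names were found, and m0150-5p, m0149-3p and m1412-5p among them had the most reads.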

How the data were processed

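Small RNA libraries of lung tissue from 6 yaks, 3 at 5000 m and 3 at 4200 m, were analysed within the 11 libraries of the series. Per the study's methods, the authors filtered reads for quality and adapters, removed other small RNA classes with Rfam, named known miRNAs from miRBase and predicted further ones with Bowtie2 and MIREAP on the yak assembly. Versions of the last pair were not given in the sources used here. The authors deposited RPM values, scaled so that each library sums to 1000000, hence a very abundant name lowers all others. Dividing each library by its smallest value above 0 returned whole reads for 100.0% of the 4651 values above 0 (tolerance 0.01). Intervals and limits of 3 reads cover counting error only.

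The 310 names averaging 1 RPM or more over all libraries were fitted with limma 3.58.1 (R 4.3.3) on log2(RPM + 1) with an abundance trend and a mean per group over the 11 libraries. Calls needed a Benjamini-Hochberg adjusted p under 0.05 and a 2-fold difference. Differences are on this log2 scale and understate those of low names. Single values were tested by exact two-sided permutation (scipy 1.17.1, numpy 2.4.6, Python 3.11.15). edgeR 4.0.16 (0 calls) and DESeq2 1.42.0 (5 calls) on recovered reads, other scalings, filters, pseudocounts and left-out libraries were alternatives. The scripts were tested on simulated data. The names given in the text were the 5 most abundant, up to 10 higher and 10 lower without overlap at the smallest p, those called in any alternative, the 9 network miRNAs and the other arms. The groups compared, lists and naming rule were chosen with earlier results of these data known. The 3 plant-prefixed names found in T3 only, gma-miR1520q_R22-8L24 and m0307 were named after their values were seen. Within T2 and within T3 no library was a duplicate of another, with a chi-square per degree of freedom of at least 212 between pairs. Pairs across groups were not checked in this way. Sequences and coordinates of the names were not used here.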

Additional observations from a re-analysis of the deposited data

How the results depend on the processing

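The count of 0 calls in limma stayed at 0 under RLE and TMM scaling, RPM outside m1080-5p, predicted names alone, summed arms, a minimum of 10 reads, pseudocounts of 0.1 and 10, the 6 libraries or 9 yak libraries alone, a term for few plant names and edgeR. It was 5 with DESeq2 and 6 without the filter on low values, and from 0 to 14 when 1 library was left out, with 12 without T2 3 and 14 without T3 3. The 43 names at an unadjusted p became 87 without the filter, 17 at a minimum of 10 reads, 28 with the term and 21 without CON 1 and T2 2 together, an alternative chosen after seeing the data, and ranged from 16 to 105 with 1 library left out. The 34 names without overlap became 17 when at least 10 reads were required in every library of the higher group, and ranged from 41 to 160 with 1 library left out. Fewer libraries lack overlap more readily, so a rise from 34 follows in part from the design. At 10 reads, 19 names were found in T3 only and 64 in T2 only. Apart from that effect of library number, the cause of these changes was not tested. The replicate numbers did not pair the samples, since deviations of same-numbered libraries correlated at 0.044, -0.12 and -0.23. A fit with the replicate block gave 0 calls and 46 names at an unadjusted p.

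Every name called in an alternative kept the direction it had in RPM. Over all 310 names, 44 turned sign with RLE scaling, 27 with TMM, 50 with DESeq2 and 28 with edgeR. Among the names chosen for the text, those that turned were other arms. With DESeq2 they were 0.079 for m0064-5p, 0.54 for m0266-5p, 0.30 for m0267-5p, 0.53 for m0360-3p, 0.67 for m0833-5p and 0.19 for m1355-3p. With RLE scaling they were 0.057 for m0064-5p, 0.042 for m0266-5p, 0.21 for m0267-5p, 0.54 for m0360-3p and 0.54 for m0833-5p. With TMM scaling they were 0.022 for m0266-5p, 0.24 for m0360-3p and 0.23 for m0833-5p, and with edgeR 0.49, 0.21 and 0.16 in the same order. With the term for few plant names m0266-5p was at 0.14 and m0833-5p at 0.66. Without CON 1 and T2 2 they were at 0.34 and 0.53, and m1355-3p at 0.041. For m1308-3p the difference was -0.20 in RPM outside m1080-5p. With 1 library left out, the differences ranged from -0.59 to 0.34 for m0266-5p, from -0.35 to 0.048 for m0360-3p, from -1.31 to 0.53 for m0833-5p, from -0.57 to 1.21 for m1308-3p and from -1.12 to 0.041 for m1355-3p.

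Depth limits low names, since 3 reads amount to 0.557 RPM in T2 1 and 1.89 RPM in T2 2. T2 2 also held few plant-prefixed names, 19 at 1589131 reads. T1 1 held 93 of them at 1536041 reads, and CON 1 held 28 at 2428001 reads. The reason for the low counts was not tested. With 3 animals a group, no exact test of a single value could go below p = 0.1.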

Other observations

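The libraries of the other groups were set beside the names that differed between 5000 m and 4200 m, as values only. The yak library T1 1, from 3400 m, held m1080-5p at 21.7% and the next 4 names at 65.2% of its reads, between T3 1 and the T2 libraries, while T1 2 and T1 3 held 55.5% and 55.05% of m1080-5p. T1 1 also correlated with T3 1 and T3 2 at 0.891 and 0.890 (Spearman, across 310 names). The ratio of arms that marked T3 1 and T3 2 recurred there, with m0753-5p at 85779 RPM and m0753-3p at 1.95 RPM, against 106 and 165.7 RPM of m0753-3p in T1 2 and T1 3 and 210 and 122.6 RPM in the cattle CON 1 and CON 2. The same library was low in m1234-5p, at 124 RPM against 747 and 674 RPM in T1 2 and T1 3, and in m1146-5p, at 11.1 RPM against 186 and 270 RPM. Per the study's supplement, T1 1, T3 1 and T3 2 kept the largest shares of their raw small RNA reads after filtering. A link to their common profile was not tested.

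The names high in T2 1 and T2 2 were also high in the cattle library CON 1. There m0149-5p stood at 1144 RPM, m0150-5p at 103 RPM, m0151-5p at 59.7 RPM and m1080-3p at 49.0 RPM. In CON 2 these were at 144, 6.83, 4.10 and 1.71 RPM, and in the T1 libraries m0150-5p was at 0.651, 3.71 and 0 RPM. CON 1 and T2 2 were the libraries with few plant-prefixed names, 28 and 19, and correlated at 0.944. They were also those with the lowest raw base quality in the study's supplement.

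Of the 37 names lower in T3 at an unadjusted p, the T1 mean was nearer to T3 than to T2 for 22, against 200 of all 310 names. It lay between them for 35 of the 37, against 173 of the 310. The 37 were selected for a wide gap between T3 and T2 on the same values. A mean of another group falls within a wide gap more readily, so these counts show no order of the altitudes. The cattle mean was nearer to T3 for 1 of the 37, against 55 of the 310. The libraries within each group differed in this. Among the 37, T1 1 was nearer to T3 for 32, T1 2 for 10 and T1 3 for 18. CON 1 was nearer to T3 for 2 and CON 2 for 12, against 40 and 142 of all 310. The counts by group mean therefore do not describe each library of the group.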
